A study of Mus musculus with 16 samples.

Results

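The vacuolar H+-ATPase (V-ATPase) is the proton pump of the lysosome, and 10 of its subunit genes were followed here: Atp6v0a1, Atp6v0d1, Atp6v0d2, Atp6v0e, Atp6v1a, Atp6v1b2, Atp6v1c1, Atp6v1d, Atp6v1h and Atp6ap1. They were chosen by name, with earlier results of these data known. Every array probe whose transcript accession belongs to one of these genes was taken. These are 15 probes, out of 32994 probes matched to 22911 genes. All 10 genes had a probe that was tested, among 14094 tested genes, and 14 of the 15 probes passed the filter on dim signals. In 9 genes the tested probe was well above background on all 16 arrays. The exception was Atp6v0d2, and for that reason medians below are given over the other 9.

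The cells were primary podocytes grown out of bead-isolated glomeruli of male Jcl:ICR mice, measured with 4 arrays in each of 4 groups. Tsc2Δpodocyte mice carry 2 floxed Tsc2 alleles and a Cre transgene for deletion in podocytes, so that other cells of a culture would keep the gene. Tsc2flox/flox mice, the controls, carry the same floxed alleles with no Cre stated, and no group with Cre alone was among these arrays, so that Cre and loss of Tsc2 cannot be told apart. Untreated mice were 4 weeks old, and the Tsc2Δpodocyte + Rapamycin and Tsc2flox/flox + Rapamycin mice were 5 weeks old after 1 week of rapamycin. Treated and untreated samples lay on different slides, so treatment, age and slide cannot be told apart. Within a slide each genotype filled its own row, so that genotype and row cannot be told apart either. The sources do not say that the 4 cultures of a group came from separate mice, and p-values then measure only the spread between these samples.

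The V-ATPase has a cytosolic V1 sector, which hydrolyses ATP, and a membrane V0 sector, through which protons pass into the lumen. A rotor couples both sectors, and the enzyme is regulated by reversible separation of V1 from V0. On the lysosome the pump acidifies the lumen for hydrolases and for the breakdown of autophagic cargo. It also binds the Ragulator complex, through which amino acids recruit mTORC1, the kinase complex that TSC2 restrains and rapamycin inhibits. The MiT/TFE transcription factors bind the CLEAR element, an extended E-box found in promoters of many lysosomal genes.

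RefSeq promoters (build GRCm38.p6) were at hand for 6 of the 10 genes, Atp6v0a1, Atp6v0d1, Atp6v0e, Atp6v1a, Atp6v1d and Atp6ap1. The windows of 300 bases ran from 250 before to 50 after the start taken for each promoter. In Atp6v0d1, Atp6v0e and Atp6ap1 this was the annotated start of the gene. In Atp6v0a1, Atp6v1a and Atp6v1d the whole window lay inside the annotated gene, so that the gene's annotated start was not searched. Each window was searched on both strands for CACGTG, for TCACGTGA, a CLEAR-type palindrome that contains CACGTG, and for TGACNNNGC, an antioxidant response type. The palindrome TCACGTGA was found in 3 of the 6 windows and in 0.974% of 32851 promoters of the same length. CACGTG was in the same 3 windows, each time as the core of TCACGTGA, and in 7.15% of all promoters. TGACNNNGC was in 2 of the 6, Atp6v1a and Atp6v0a1, and in 12.4% of all promoters. The 18 promoters of 13 other V-ATPase subunit genes held 1 match to CACGTG, 0 to TCACGTGA and 2 to TGACNNNGC. The 3 windows that hold the palindrome are shown up to 30 bases after the start taken for each. Capitals mark a searched motif.
Atp6v0d1, chr8:105566035-105566314, minus strand: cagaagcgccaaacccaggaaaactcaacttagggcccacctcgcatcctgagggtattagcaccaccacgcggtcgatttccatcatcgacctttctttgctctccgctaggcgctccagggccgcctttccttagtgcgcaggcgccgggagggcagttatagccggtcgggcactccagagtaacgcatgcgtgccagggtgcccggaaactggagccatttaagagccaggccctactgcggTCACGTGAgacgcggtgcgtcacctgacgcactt
Atp6v0e, chr17:26676146-26676425, plus strand: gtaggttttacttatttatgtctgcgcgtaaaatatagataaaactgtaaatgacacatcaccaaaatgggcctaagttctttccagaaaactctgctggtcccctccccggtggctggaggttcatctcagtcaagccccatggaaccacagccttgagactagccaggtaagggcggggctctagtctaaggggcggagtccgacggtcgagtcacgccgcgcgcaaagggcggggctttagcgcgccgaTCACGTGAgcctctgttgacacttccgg
Atp6v1a, chr16:44139230-44139509, minus strand: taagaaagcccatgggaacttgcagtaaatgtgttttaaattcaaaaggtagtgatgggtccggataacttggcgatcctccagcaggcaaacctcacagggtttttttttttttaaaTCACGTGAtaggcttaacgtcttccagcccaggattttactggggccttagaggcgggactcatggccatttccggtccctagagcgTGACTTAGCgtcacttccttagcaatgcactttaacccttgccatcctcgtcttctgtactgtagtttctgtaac
Relative to the start taken for each window, the palindrome began at -4 in Atp6v0d1, at 2 in Atp6v0e and at -132 in Atp6v1a. The Atp6v1a gene, on the minus strand, is annotated to begin at 44139702, so that its palindrome lies inside the annotated gene. A match is only a run of letters, and no binding was measured here.

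All levels below are log2 signals relative to the 75th percentile of the same array, and each gene is read on its brightest tested probe unless another is named. Signals of different probes are not compared with each other. The summed marker signals below add unlogged signals, so that the brightest markers weigh most in them. A gene is said to have risen or fallen where limma gave an adjusted p under 0.05 over all tested probes. Tsc2 checked the labels first. On its brighter probe the Tsc2Δpodocyte arrays were at 2.07, 1.99, 2.31 and 1.93 and the Tsc2flox/flox arrays at 3.61, 3.40, 2.95 and 3.71. With rapamycin they were at 2.07, 2.73, 2.05 and 2.09 against 3.65, 3.47, 2.83 and 2.93. Tsc2 was lower on every array of its deleted group in both settings, and whether its probes lie in the deleted exons was not determined here. Of 14 podocyte markers, 13 were above background on all 16 arrays, the exception being Nphs1.

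Most V-ATPase genes were higher in Tsc2Δpodocyte than in Tsc2flox/flox podocytes without rapamycin, by modest amounts. Of the 10 genes, 6 rose (Atp6v0e, Atp6v1a, Atp6v1c1, Atp6v1d, Atp6v1h and Atp6ap1) and 0 fell, where 10.3% of all tested genes rose. The rises were 1.23-fold to 1.71-fold. With the additional demand of a 1.5-fold difference only Atp6v1a remained, against 6.18% of all tested genes. In 8 of the 10 genes all 4 Tsc2Δpodocyte arrays lay above all 4 Tsc2flox/flox arrays, which held for 13.5% of all tested genes. The median log2 fold change over the 9 genes measured on all arrays was 0.50, and over all tested genes it was -0.01. As the 10 genes were chosen with earlier results of these data known, these shares are a description and no test. Because these are bulk cultures, more cells of a type and more RNA per cell cannot be told apart.

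**Figure D1:**
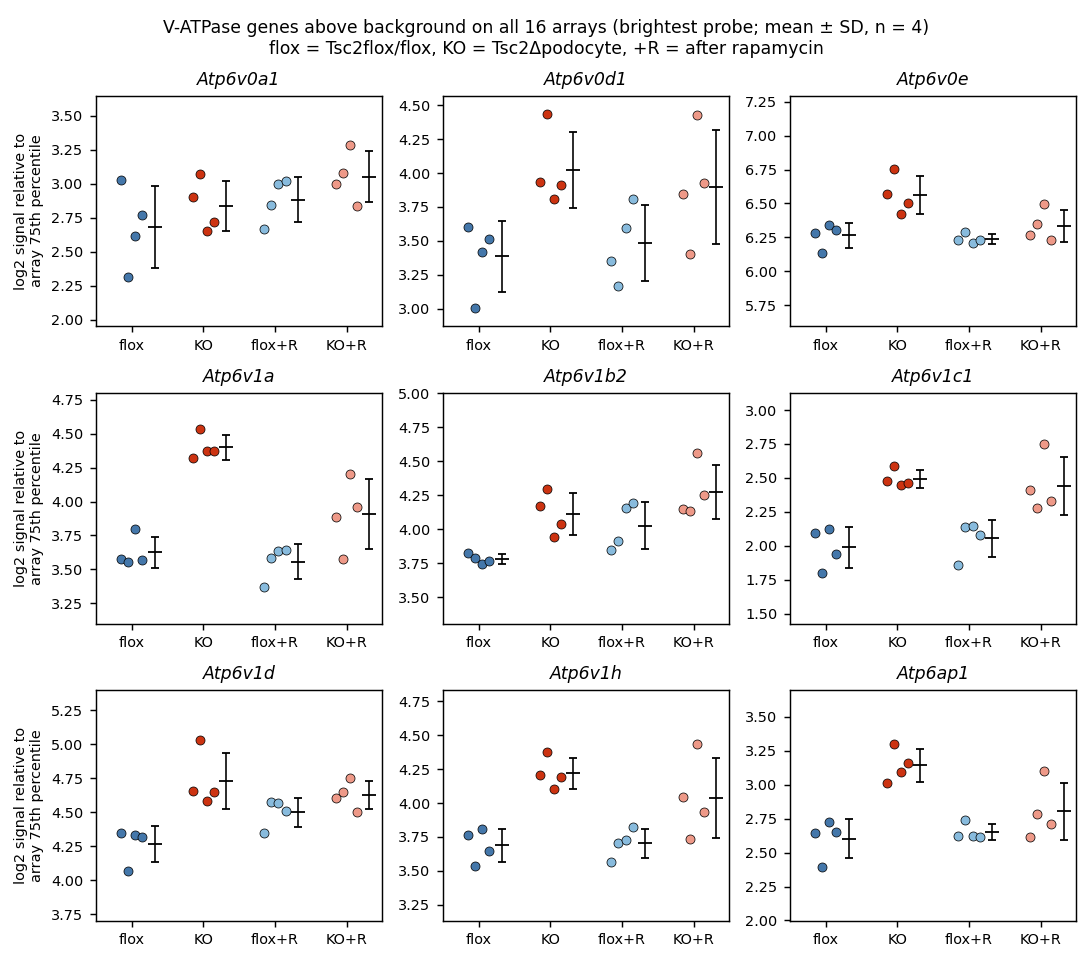
Log2 signal of 9 V-ATPase genes on each of the 16 arrays, relative to the 75th percentile of the array, with the mean and SD of each group beside its 4 points (flox, Tsc2flox/flox; KO, Tsc2Δpodocyte; +R, after rapamycin). In every panel but Atp6v0a1 the 4 untreated KO points lie above the 4 untreated flox points, while the treated groups overlap in all panels but Atp6v1c1.

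In the V1 sector, Atp6v1a encodes the catalytic A subunit, which binds and hydrolyses ATP. Its signal was 4.32, 4.53, 4.37 and 4.37 in Tsc2Δpodocyte podocytes (4.40 ± 0.09, SD, n = 4) and 3.57, 3.56, 3.80 and 3.57 in Tsc2flox/flox podocytes (3.63 ± 0.12). The groups did not overlap and differed by 0.77 on the log2 scale (SE 0.12, limma adjusted p = 0.000720). Atp6v1c1, for the C subunit that bridges V1 and V0 and is released when they separate, was at 2.47, 2.59, 2.45 and 2.46 against 2.09, 1.80, 2.12 and 1.94. These groups were also apart, by 0.50 on the log2 scale (SE 0.11, limma adjusted p = 0.00734). Atp6v1h encodes the regulatory H subunit, and its 4 values of 4.20, 4.38, 4.10 and 4.19 lay above the 4 control values of 3.77, 3.53, 3.81 and 3.64 (log2 fold change 0.53, adjusted p = 0.0111 from limma). Its second, dimmer probe differed by 0.41 without passing (adjusted p = 0.0745 from limma), although its groups did not overlap either.

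Atp6v1d, for the D subunit of the central rotor, rose as well. Its signal was 4.66, 5.03, 4.58 and 4.65 in Tsc2Δpodocyte podocytes and 4.35, 4.07, 4.33 and 4.32 in controls, 0.46 higher on the log2 scale (SE 0.11, limma adjusted p = 0.00910). The high array of the first group and the low array of the second were both replicate 2. Atp6v1b2 encodes the B subunit that stands beside A in the catalytic ring. Its values of 4.17, 4.30, 3.94 and 4.04 lay above the controls at 3.83, 3.79, 3.75 and 3.77, but the log2 fold change of 0.33 missed the threshold (95% interval 0.09 to 0.57, adjusted p = 0.0575 from limma). Leaving out Tsc2Δpodocyte replicate 3 brought it past the threshold (adjusted p = 0.0439 from limma). The second Atp6v1b2 probe differed by 0.23, and there the groups overlapped.

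In the V0 sector 1 of the 4 genes, Atp6v0e, passed the test. Atp6v0e, for a small membrane subunit, was at 6.57, 6.75, 6.42 and 6.50 in Tsc2Δpodocyte podocytes and 6.29, 6.13, 6.34 and 6.30 in controls. The groups did not overlap, but the rise was the smallest among the 6 (log2 fold change 0.29, SE 0.09, limma adjusted p = 0.0299). This call was lost without replicate 1 or 2 of the Tsc2Δpodocyte arrays or replicate 1, 2 or 4 of the Tsc2flox/flox arrays, with adjusted p-values between 0.0510 and 0.0887. Atp6v0d1 encodes the ubiquitous d subunit that joins the membrane ring to the rotor. It was at 3.94, 4.43, 3.81 and 3.91 against 3.60, 3.01, 3.42 and 3.51, groups that did not overlap. Its log2 fold change of 0.64 was second only to Atp6v1a among the 10, but its replicates spread more and it stayed just outside the threshold (95% interval 0.18 to 1.09, adjusted p = 0.0511 from limma).

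Atp6v0a1 encodes the a1 isoform of the subunit that holds the proton half-channels. Its values of 2.90, 3.07, 2.66 and 2.72 overlapped with the controls at 3.03, 2.31, 2.61 and 2.77. The log2 fold change was 0.16 with a 95% interval from -0.17 to 0.48 (adjusted p = 0.501 from limma), and its second probe gave 0.08. Atp6ap1 encodes Ac45, an accessory subunit that helps to assemble V0. Its signal was 3.02, 3.30, 3.09 and 3.16 against 2.64, 2.39, 2.72 and 2.65, with no overlap. Its 2 probes gave log2 fold changes of 0.54 and 0.55 (adjusted p = 0.00398 and 0.00393 from limma), so that both rose by nearly the same amount. Of the 3 genes whose promoter window holds TCACGTGA, the differences were 0.77 (Atp6v1a), 0.64 (Atp6v0d1, not past the threshold) and 0.29 (Atp6v0e). Of the 3 whose promoter window lacks it, they were 0.54 (Atp6ap1), 0.46 (Atp6v1d) and 0.16 (Atp6v0a1, not past the threshold). The windows of Atp6v1a, Atp6v1d and Atp6v0a1 did not cover the annotated start of the gene.

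**Figure D2:**
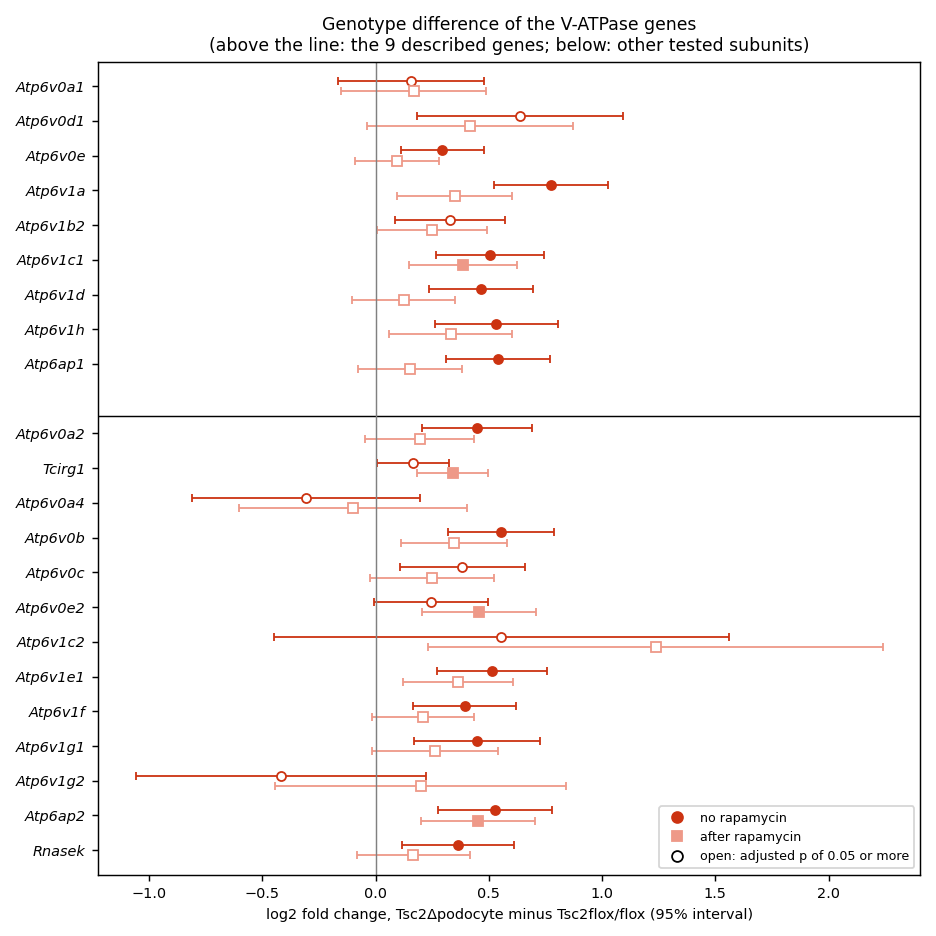
Log2 fold change between Tsc2Δpodocyte and Tsc2flox/flox podocytes with its 95% interval, for 9 of the 10 V-ATPase genes (above the line) and 13 other tested subunit genes (below), without rapamycin (circles) and after it (squares). Filled symbols passed an adjusted p under 0.05, which 6 of the upper 9 did without rapamycin and 1, Atp6v1c1, did after it.

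With rapamycin in both genotypes the difference was smaller in value in 8 of the 9 genes measured on all arrays, the exception being Atp6v0a1 (0.16 without and 0.17 with rapamycin). The same count was not made over all tested genes, of which 10.3% rose without rapamycin. Of the 10 genes, 1 rose and 0 fell, where 6.2% of all tested genes rose, and the groups were apart in 1 of 10, against 10.7% of all tested genes. The gene was Atp6v1c1, at 2.41, 2.28, 2.75 and 2.33 in Tsc2Δpodocyte + Rapamycin podocytes and 1.86, 2.14, 2.15 and 2.08 in Tsc2flox/flox + Rapamycin podocytes. The log2 difference came to 0.39 (SE 0.11, limma adjusted p = 0.0411). The call did not hold without any one of the 8 arrays except Tsc2Δpodocyte + Rapamycin replicate 2, with adjusted p-values between 0.0508 and 0.100. The 9 genes measured on all arrays had a median log2 fold change of 0.25, from 0.09 for Atp6v0e to 0.42 for Atp6v0d1. All 9 were positive, where 51.1% of all tested genes were. Over all tested genes the median was 0.01.

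Atp6v1a was at 3.89, 3.58, 4.20 and 3.96 in treated Tsc2Δpodocyte podocytes and at 3.37, 3.58, 3.63 and 3.65 in treated controls. The groups overlapped in this setting, and the log2 fold change was 0.35 (95% interval 0.10 to 0.60, adjusted p = 0.0743 from limma). Atp6v1d was at 4.60, 4.65, 4.75 and 4.50 against 4.35, 4.58, 4.57 and 4.51, which differ by 0.12 (95% interval -0.10 to 0.35). Atp6ap1 was at 2.62, 2.78, 3.10 and 2.71 against 2.62, 2.74, 2.62 and 2.62, which differ by 0.15 (95% interval -0.08 to 0.38). In Atp6ap1 the single high array was replicate 3 of the Tsc2Δpodocyte + Rapamycin group.

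Whether the genotype difference itself changed with rapamycin was tested by the interaction term. It passed for 0 of the 10 genes, and for 0% of all 14094 tested genes. At an unadjusted p under 0.05 it did so for 3 of the 10, Atp6v1a (-0.42, 95% interval -0.78 to -0.07), Atp6ap1 (-0.39, -0.71 to -0.06) and Atp6v1d (-0.34, -0.66 to -0.02). Their adjusted p-values from limma were 0.654, 0.651 and 0.669. Of all tested genes, 1042 had an unadjusted p under 0.05. A smaller genotype difference under rapamycin was thus not shown for any of these genes.

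The mean over the 9 genes, each centred on its own average, placed single arrays apart from their groups. In Tsc2Δpodocyte podocytes the 4 means were 0.21, 0.45, 0.12 and 0.19, and in Tsc2flox/flox podocytes they were -0.13, -0.41, -0.16 and -0.21. With rapamycin they were 0.06, -0.04, 0.41 and 0.04 against -0.27, -0.15, -0.07 and -0.04. The highest value of a gene fell on Tsc2Δpodocyte replicate 2 in 5 of the 9 genes and on Tsc2Δpodocyte + Rapamycin replicate 3 in the other 4. The lowest fell on Tsc2flox/flox replicate 2 in 7 of the 9. The same 2 high arrays had the largest summed signal of the 14 podocyte markers, 286 and 293, where the other 14 arrays lay between 136 and 199. When both were left out, which was decided after seeing the data, 5 genes rose without rapamycin, all but Atp6v0e of the former 6, and 0 rose with it. Beyond this the part of podocyte marker level in the results was not tested.

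**Figure D3:**
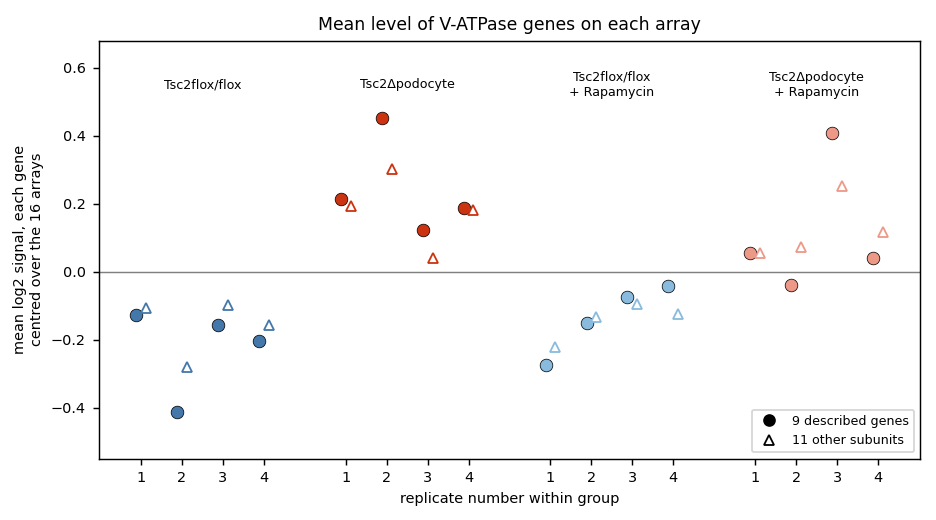
Mean log2 signal of the 9 V-ATPase genes above background on all arrays (circles) and of 11 other subunit genes (triangles) on each array, after each gene was centred on its average over the 16 arrays. The 4 untreated Tsc2Δpodocyte arrays lie between 0.12 and 0.45 and the 4 untreated Tsc2flox/flox arrays between -0.41 and -0.13, and replicate 3 of the Tsc2Δpodocyte + Rapamycin group stands above its group at 0.41.

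Macrophages also make much V-ATPase, and their markers were present in the cultures. Of 17 macrophage and leukocyte markers, 15 were above background on all 16 arrays, and Ccr2 on none. Their summed signal ran from 14.9 to 24.6 in Tsc2Δpodocyte and from 9.80 to 20.8 in Tsc2flox/flox podocytes. In the untreated comparison 15 of 16 tested markers were positive, where 48.7% of all tested genes were, and their median log2 fold change was 0.98. Only Cd68, a lysosomal glycoprotein, rose (1.03, adjusted p = 0.0190 from limma), where 10.3% of all tested genes rose. The exception in sign was Itgam (-0.52, adjusted p = 0.0503 from limma). It was the brightest of the 16 in both untreated groups and weighed most in their summed signal. With rapamycin the median of these markers was -0.06 and the summed signal was 14.3 to 22.0 against 13.1 to 22.4, and the median of the 9 V-ATPase genes was 0.25. The part of these cells in the V-ATPase levels was not tested. The kidney's other V-ATPase-rich cell is the intercalated cell of the collecting duct. Of its 8 markers, Foxi1, Slc4a1, Hmx2 and Rhbg were above background on no array, whereas Car2 and Kit, which other cells also make, were so on all 16. The 3 tested, Car2, Kit and Aqp6, did not pass in either genotype comparison.

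The other V-ATPase subunit genes also rose in part without rapamycin. Of 16 other subunit genes, 13 were tested, 7 rose and 0 fell, where 10.3% of all tested genes rose. Their median log2 fold change was 0.39. The smallest p-values were those of Atp6v0b, a proteolipid of the membrane ring (0.55, adjusted p = 0.00392), Atp6v1e1 of the peripheral stalk (0.51, adjusted p = 0.00717), Atp6ap2, the (pro)renin receptor (0.53, adjusted p = 0.00781), and Atp6v0a2 (0.45, adjusted p = 0.0149, all from limma). Atp6v1f, Atp6v1g1 and Rnasek also rose. Atp6v0c, the main ring proteolipid, missed the threshold on its brightest probe (0.38, adjusted p = 0.0516 from limma) and passed on its other (0.46, adjusted p = 0.00679 from limma). With rapamycin 3 of the 13 rose, Atp6ap2 (0.45), Tcirg1 (0.34) and Atp6v0e2 (0.46), where 6.2% of all tested genes rose. The probes of Tcirg1 disagreed there, the other one giving -0.12, and the second probe of Atp6v0a2 rose (0.53) where the brightest gave 0.19.

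Paralogues of the 10 genes differed in what they showed. Of the a isoforms, Atp6v0a2 rose without rapamycin, whereas Atp6v0a1, Tcirg1 (a3, 0.17) and Atp6v0a4 (-0.31) did not pass. Atp6v0e rose where its paralogue Atp6v0e2 gave 0.25 (adjusted p = 0.161 from limma). Atp6v1c1 rose where Atp6v1c2 gave 0.55 with a wide error (adjusted p = 0.437 from limma). Atp6v1b1, the B isoform of intercalated cells, was not tested, being above background on 2 of the 16 arrays, both Tsc2flox/flox. None of these differences between paralogues was tested itself.

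Genes around the pump were counted in the same way. Of 14 genes of V-ATPase assembly and regulation 0 rose and 0 fell without rapamycin, where 10.3% of all tested genes rose. Their median was 0.09. The smallest p-values belonged to Tmem9b (0.39), Tbc1d24 (0.41), Vma21 (0.26) and Wdr7 (0.32). These 4 had an unadjusted p under 0.05 from limma, as had 4842 of all 14094 tested genes. Of the 6 genes of Ragulator and amino acid sensing, Lamtor3 (0.50, adjusted p = 0.0103 from limma) and Lamtor1 (0.42, adjusted p = 0.0431 from limma) rose. All 6 were positive with a median of 0.31, where 48.7% of all tested genes were positive. Lamtor4 (0.33) and Lamtor5 (0.22) did not pass. Among the 4 MiT/TFE factors Mitf rose by 0.84 (adjusted p = 0.00780 from limma) and on its other 2 probes by 0.72 and 0.79. Tfeb (0.09), Tfe3 (0.09) and Tfec (-0.34) did not pass.

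Atp6v0d2 stood apart from the other 9 genes. It encodes a d isoform with a narrow distribution, known from osteoclasts, macrophages and some kidney epithelia, where d1 is ubiquitous. Without rapamycin it was well above background on 0 of 4 Tsc2Δpodocyte and 2 of 4 Tsc2flox/flox arrays, at -5.13, -6.12, -5.51 and -5.88 and at -4.44, -5.17, -5.80 and -5.33. With rapamycin all 8 arrays were above background, at -3.39, -2.41, -2.13 and -3.18 in Tsc2Δpodocyte + Rapamycin and at -4.00, -2.24, -0.35 and -1.79 in Tsc2flox/flox + Rapamycin podocytes. Every treated array lay above every untreated array of its genotype. The probe passed the filter only through the treated groups, so that a difference was built into its being tested.

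In Tsc2Δpodocyte podocytes the bound on the rise of Atp6v0d2 with rapamycin was 5.50-fold, taken from means without their error. The fitted log2 difference was 2.88, with a 95% interval from 1.65 to 4.11. The limma adjusted p of 0.0231 is given for completeness, as the filter had favoured this difference. The bound sets the measured mean of -2.78 against -5.24, the mean over the untreated arrays of the lowest signal above background or the probe's own signal, whichever was higher. Leaving out Tsc2Δpodocyte replicate 2 or 4 or Tsc2Δpodocyte + Rapamycin replicate 2 left it short of the threshold (limma adjusted p = 0.0571, 0.0565 and 0.0599). With normexp background correction, which adds an offset, the log2 difference was 0.82 in place of 2.88 and did not pass (limma adjusted p = 0.122). In Tsc2flox/flox podocytes, where 2 of the 4 untreated arrays measured it, the bound, again without error, was 6.40-fold. The fitted log2 difference of 3.09 did not pass (adjusted p = 0.0518 from limma). Without Tsc2flox/flox + Rapamycin replicate 1, the lowest treated array, it passed (adjusted p = 0.0110 from limma). The 2 genotypes were not shown to differ in this (interaction -0.21, 95% interval -1.95 to 1.54), and with rapamycin they overlapped (log2 fold change -0.68, SE 0.58, limma adjusted p = 0.496).

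**Figure D4:**
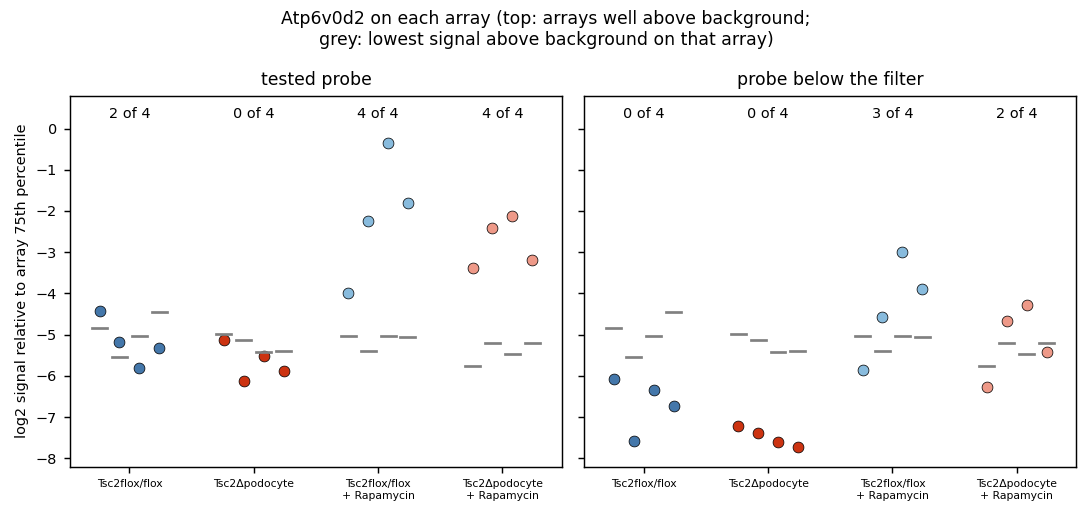
Log2 signal of both Atp6v0d2 probes on each array, relative to the 75th percentile of the array, with the lowest signal called above background on that array as a grey bar and the number of arrays above background at the top. On the tested probe 2 of 8 untreated and 8 of 8 treated arrays were above background, and on the dimmer one 0 of 8 and 5 of 8.

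The second Atp6v0d2 probe, too dim to be tested, was above background on 0 of 8 untreated arrays and on 2 of 4 Tsc2Δpodocyte + Rapamycin and 3 of 4 Tsc2flox/flox + Rapamycin arrays. Its bounds were 1.06-fold and 1.56-fold. On both probes the highest array was Tsc2flox/flox + Rapamycin replicate 3, at -0.35 and -2.99. Of the 7 osteoclast markers, Dcstamp and Calcr were above background on no array and 4 were tested, with 0 rising or falling in either genotype. Their summed signal was 3.10 to 4.53 in untreated and 3.80 to 7.51 in treated Tsc2Δpodocyte podocytes, and 2.22 to 3.57 and 4.03 to 15.7 in Tsc2flox/flox podocytes. Acp5 weighed most in these sums, with log2 group means from 1.14 to 2.69. Mmp9, the next brightest tested marker, ran from -1.75 to -0.45. The 4 tested markers differed in sign. In Tsc2Δpodocyte podocytes the log2 differences were 0.73 for Acp5, 0.44 for Mmp9, -0.35 for Oscar and -1.27 for Ctsk, with a median of 0.05. In Tsc2flox/flox podocytes they were 1.55, 1.16, -0.26 and 0.64, with a median of 0.90. The summed macrophage signal was 14.3 to 22.0 in treated against 14.9 to 24.6 in untreated Tsc2Δpodocyte podocytes, and 13.1 to 22.4 against 9.80 to 20.8 in Tsc2flox/flox podocytes. Of the 16 tested macrophage and leukocyte markers, 5 were higher with rapamycin in Tsc2Δpodocyte podocytes, with a median of -0.22. In Tsc2flox/flox podocytes 13 were higher, with a median of 0.67. Of all tested genes, 51.6% and 50.3% were higher, and 0 of the markers passed in either genotype. The part of cells with osteoclast or macrophage markers in the Atp6v0d2 signal was not tested.

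Few other V-ATPase genes differed between treated and untreated arrays, where rapamycin, age and slide cannot be told apart. In Tsc2Δpodocyte podocytes 0 of the 9 genes measured on all arrays rose and 1 fell, Atp6v1a, where 1.97% of all tested genes rose and 1.53% fell. Atp6v0d2 also passed, but it had entered the test only through the treated arrays. Atp6v1a fell by 0.49 on the log2 scale (SE 0.12, limma adjusted p = 0.0391), and its 4 treated values lay below all 4 untreated ones. This call held only without Tsc2Δpodocyte + Rapamycin replicate 3 (adjusted p = 0.0297). Without any other of the 8 arrays it was lost, with adjusted p-values between 0.0584 and 0.0871. The treated level of 3.91 ± 0.26 (SD, n = 4) stayed between the untreated one (4.40 ± 0.09) and that of untreated controls (3.63 ± 0.12). Atp6ap1 differed by -0.34 (95% interval -0.57 to -0.11, adjusted p = 0.0875 from limma) and Atp6v0e by -0.23 (adjusted p = 0.143 from limma).

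Between treated and untreated Tsc2flox/flox arrays 0 of the 10 genes passed, where 0.163% of all tested genes did in either direction. At an unadjusted p under 0.05 limma gave Atp6v1b2 (0.25), Atp6v1d (0.24) and Atp6v0d2, the last of which had entered the test only through the treated arrays. Of all 14094 tested genes, 2236 had such a p. Atp6v1a differed by -0.07 there (95% interval -0.32 to 0.18), Atp6v1c1 by 0.07 (-0.17 to 0.30) and Atp6v1h by 0.02 (-0.25 to 0.29). Both rapamycin comparisons use the untreated arrays that also enter the untreated genotype comparison.

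Tested genes were ranked by Pearson's r over the 16 arrays with the mean of the 10 standardised genes. Left out of the ranking were the lists of V-ATPase subunits, of assembly and regulation, and of Ragulator and amino acid sensing. The 5 most alike were Ddit3 (0.964), Glmp (0.964), Cds2 (0.963), Uap1l1 (0.959) and Isoc2b (0.957). Ddit3 encodes CHOP, a transcription factor of the stress response, and Glmp a lysosomal membrane protein. Their deviations from the group means correlated with those of the V-ATPase mean at 0.898 to 0.925. These deviations enter the r by which the genes were picked, so that high values were favoured. The 5 most like Atp6v0d2 were Ccrl2 (0.975), Itgax (0.958), Cd300a (0.932), Zfp335 (0.920) and Il7r (0.917), and their deviations correlated with those of Atp6v0d2 at 0.629 to 0.936. Itgax encodes the integrin CD11c of dendritic cells and macrophages, and Il7r the interleukin-7 receptor. The points of these correlations share arrays, slide and treatment, and the genes were picked as the highest of all tested genes outside those lists.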

How the data were processed

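Cy3-labelled RNA was hybridised to one-colour Agilent SurePrint G3 mouse arrays (16 arrays, 4 per group), and the authors' scanner output gives a background-subtracted intensity per spot, made with Agilent Feature Extraction 10.7.3.1 per the submitters' processing notes. Here each intensity was divided by its array's 75th percentile and put on the log2 scale, with repeated spots averaged and outlier spots left out. The deposited value table holds log2 values which the authors scaled likewise and centred on each probe, by comparison with the scanner values (r of at least 0.9997). It served as an alternative. Accessions were matched to RefSeq symbols (GRCm38.p6 tables), and the scanner headers name mm9 as the design's build, from which no coordinate was taken. Of 56605 probes, 27579 were tested, namely those well above background throughout at least 1 group of 4 arrays. Correlations between arrays were 0.979 to 0.992 within groups.

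One limma model (3.58.1, R 4.3.3) with 4 group means was fitted to all 16 arrays, with Benjamini-Hochberg adjustment over all tested probes in each of 5 comparisons. The study's methods give a threshold for the arrays but no test of their own, and a t-test for comparisons of 2 groups in general. A gene was read on its tested probe with the highest mean over all arrays. In each further list up to 4 genes with the smallest p without rapamycin were named, with paralogues of the 10 genes. Atp6v1f, Atp6v1g1, Atp6v0c and Rnasek were named after their values were seen. The 10 genes and the lists were chosen with earlier results of these data known. The script was tested on simulated data. Alternatives were quantile normalization, normexp (offset 50), the deposited values, no filter, a stricter filter, a fit of the compared groups alone, that t-test (called the methods' t-test), limma's trended and robust prior, a block for the replicate number, any passing probe, a 1.5-fold threshold, each array left out, and, added after seeing the data, 2 arrays left out together. The number of arrays limits the precision. Pictures were drawn with matplotlib 3.10.9.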

Additional observations from a re-analysis of the deposited data

Results flagged for a closer look

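In 6 of the 60 sets of 4 arrays formed by the 15 V-ATPase probes in the 4 groups, a single array lay far from the other 3. Chance alone marks about 1 in 20 such sets. Atp6v1a was at 3.80 in Tsc2flox/flox replicate 3, the nearest other array being at 3.57. Atp6v1d was at 5.03 in Tsc2Δpodocyte replicate 2, above the next at 4.66, and at 4.07 in Tsc2flox/flox replicate 2, below the next at 4.32. On its brighter probe Atp6ap1 was at 2.74 in Tsc2flox/flox + Rapamycin replicate 2, against 2.62 on the next. On dimmer probes Atp6v1b2 was at -1.71 in Tsc2Δpodocyte + Rapamycin replicate 2, against -1.51, and Atp6v1h at 1.79 in Tsc2Δpodocyte replicate 3, against 2.00. The gaps of Atp6v1d widened the genotype difference and those of Atp6v1a and Atp6v1h narrowed it. Without Tsc2Δpodocyte replicate 2 or Tsc2flox/flox replicate 2 Atp6v1d still rose.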

How the results depend on the processing

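The untreated count of 6 genes was between 4 and 8 under the alternatives that kept the threshold and between 5 and 7 with 1 array left out, and with a 1.5-fold threshold it was 1. Atp6v1a passed in all 20 alternatives, Atp6v1c1, Atp6v1h and Atp6ap1 in 19, Atp6v1d in 18, Atp6v0e in 8, Atp6v0d1 in 5 and Atp6v1b2 in 4. With rapamycin the count of 1 became 3 with normexp and 0 with no filter, with only the arrays compared, with the methods' t-test, with the replicate block, with the 1.5-fold threshold and without the 2 arrays of highest podocyte markers, and it was 0 to 3 with 1 array left out. The interaction count was 0 under every alternative run, and the t-test and the fit of the compared groups alone have no separate form for it. Between treated and untreated Tsc2Δpodocyte arrays 2 genes passed, Atp6v1a and Atp6v0d2. This count became 1 with quantile normalization, normexp, the stricter filter, only the arrays compared and the 1.5-fold threshold. It was 0 with no filter, the methods' t-test and without the 2 arrays, and 0 to 3 with 1 array left out. In Tsc2flox/flox podocytes the count of 0 became 1, Atp6v0d2, with quantile normalization, normexp and the trended and robust prior. With 1 array left out it was 0 to 1. Atp6v0d2 had entered the main test only through the treated arrays, which favoured its being called in both comparisons. The untreated difference of Atp6v0d2 turned from -0.47 to 0.040 with normexp, past the threshold in neither. The cause of these changes was not tested. Same-numbered arrays did not all deviate together (correlations -0.304 to 0.464, over 0.1 in 5 of 16 pairs, 3 of them among the 4 pairs of the treated groups), and the number was not taken as a pairing. With the replicate block 5 genes rose without rapamycin, 0 rose with it, as Atp6v1c1 no longer passed, and the rapamycin counts were 2 and 0. The median shift of all tested genes stayed within 0.03 on the log2 scale under the other scalings.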
